A study of Homo sapiens with 39 samples.

Results

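The prostate lineage transcription factors FOXA1, HOXB13, GATA2, GRHL2, SPDEF, ELK4 and ETV1, together with NR3C1, which encodes the glucocorticoid receptor, were followed in C4-2B cells treated with androgen receptor pathway inhibitors (ARPi), PARP inhibitors (PARPi) or both. The members were taken as a list of 8 gene symbols, matched to Ensembl gene IDs in the deposited count table, and all 8 were found among 63187 gene IDs. The panel compared DMSO with single drugs after 5 days, namely the ARPi abiraterone (5 µM) and enzalutamide (20 µM) and the PARPi talazoparib (10 nM) and olaparib (1 µM). It also held a pair of combinations at those doses, abiraterone with olaparib and enzalutamide with talazoparib. In the time course, cells received DMSO, 1 µM olaparib or 5 µM olaparib for 1 or 5 days. Each of the 13 groups held 3 libraries, which makes 21 in the panel and 18 in the time course. C4-2B is an established castration-resistant line derived from LNCaP, so all groups share 1 genetic background, and all were grown in medium with serum. The labels do not say whether the 3 libraries of a group came from separate cultures, so p-values measure the spread between these libraries, which may be technical.

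FOXA1, GATA2 and HOXB13 are DNA-binding proteins that occupy prostate enhancers together with the androgen receptor, and FOXA1 and GATA2 are known as pioneer factors that open chromatin. GRHL2 is a grainyhead factor that maintains epithelial gene expression. SPDEF, ELK4 and ETV1 belong to the ETS family, in which SPDEF is typical of secretory luminal epithelium, ELK4 acts with serum response factor, and ETV1 is known as a partner of gene fusions in prostate cancer. The glucocorticoid receptor recognizes much the same DNA sequences as the androgen receptor and is known to rise in some tumors that escape ARPi.

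The count totals were 26932205 to 49833473 per panel library (median 36348316) and 34214001 to 44893664 per time course library (median 37545065). The 7 luminal markers, KLK3, KRT8 and EPCAM among them, were counted in every library, and their summed level ran from 1037 counts per 1000000 counts (CPM) with enzalutamide to 4427 CPM with 5 µM olaparib on day 5. The 3 basal markers together reached 0.0841 to 1.71 CPM, with KRT5 and TP63 at 0 to 2 counts in a library. The 3 neuroendocrine markers reached 1.048 to 2.53 CPM, with CHGA at 0 to 2 counts. The 5 stroma and blood markers reached 11.9 to 22.4 CPM, nearly all of it COL1A1, while COL1A2 had 0 to 2 counts. With abiraterone 7 of 7 luminal markers were called lower, and with enzalutamide 6 of 7, while 5 of 7 were higher with each PARPi and 6 of 7 with 5 µM olaparib on day 5. Of all genes 27.1% and 26.3% were called lower with the ARPi, and 19.6%, 18.4% and 34.4% higher with olaparib, talazoparib and 5 µM olaparib on day 5. The 1 basal and the 1 neuroendocrine marker that passed the filter on low counts, KRT14 and SYP, were called lower with each ARPi alone, and the 2 stroma and blood markers that passed it, COL1A1 and PTPRC, higher. KRT14 was called higher with each PARPi in the panel (log2 fold change 1.33 with olaparib and 1.18 with talazoparib) and on day 5 with 1 µM and 5 µM olaparib (1.62 and 2.07). SYP was called lower with each PARPi in the panel (−0.70 and −0.69) and with 5 µM olaparib on day 5 (−0.43). COL1A1 was called higher with each PARPi in the panel (0.41 and 0.25), on day 1 with 1 µM and 5 µM olaparib (0.25 and 0.39) and on day 5 with 1 µM (0.19). On day 1 with 5 µM olaparib 4 of 7 luminal markers were called lower and 2 higher, and with 1 µM 2 were called lower. Of all genes 23.4% were called lower and 21.6% higher with 5 µM on day 1, and 9.52% lower with 1 µM. PTPRC had at most 47 counts in a library. The part of these markers in the members' changes was not tested.

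Of the 8 members, 6 passed the filter on low counts in both experiments and had between 1284 and 19755 counts in every library. NR3C1 and ETV1 had at most 11 counts in a library and were not tested. Scaled by TMM and divided by the merged exon length of each gene, so that genes can be compared, FOXA1 had the highest level in panel DMSO at 97.1 ± 2.12 CPM per kilobase (SD, n = 3). HOXB13 followed at 82.8 ± 3.15 and SPDEF at 74.0 ± 1.30 CPM per kilobase. GRHL2 had 27.1 ± 0.688, ELK4 18.9 ± 0.688 and GATA2 14.8 ± 0.775 CPM per kilobase. On this scale ETV1 had 0.0189 ± 0.0102 and NR3C1 0.00533 ± 0.00367 CPM per kilobase. DMSO libraries of the time course on day 5 gave 86.8 ± 0.667 for FOXA1, 74.4 ± 1.61 for HOXB13, 65.7 ± 1.53 for SPDEF, 26.7 ± 0.568 for GRHL2, 20.6 ± 0.299 for GATA2 and 14.6 ± 0.289 CPM per kilobase for ELK4. The order of GATA2 and ELK4 was therefore reversed between the DMSO libraries of the experiments, and values are compared below only within an experiment.

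The members with the largest changes under ARPi were GATA2, ELK4 and SPDEF, and the 250 bases before an annotated start of each are shown here for reference. The sequences are RefSeq's on GRCh38.p14, read 5′ to 3′ on the strand of the gene, and all 3 genes lie on the minus strand. Capitals mark matches, on either strand, to the core letters that members are known to bind. Forkhead letters were TGTTTAC with the variants TATTTAC as well as TGTTTGC. For the GATA family they were AGATAA as well as TGATAA, and for the ETS family CCGGAAG as well as AGGAAG. Grainyhead letters were AACCNGTT and those of HOX13 factors CCAATAAA. For steroid receptors they were a full site, GNACA and TGTNC with 3 free bases between them, and AGAACA as a single arm.
GATA2, chr3:128493202-128493451: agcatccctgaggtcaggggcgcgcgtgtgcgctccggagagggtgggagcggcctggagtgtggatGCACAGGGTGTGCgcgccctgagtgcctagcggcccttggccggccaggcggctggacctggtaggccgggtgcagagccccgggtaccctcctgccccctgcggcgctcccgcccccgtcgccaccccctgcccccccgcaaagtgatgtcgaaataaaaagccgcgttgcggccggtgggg
SPDEF, chr6:34556330-34556579: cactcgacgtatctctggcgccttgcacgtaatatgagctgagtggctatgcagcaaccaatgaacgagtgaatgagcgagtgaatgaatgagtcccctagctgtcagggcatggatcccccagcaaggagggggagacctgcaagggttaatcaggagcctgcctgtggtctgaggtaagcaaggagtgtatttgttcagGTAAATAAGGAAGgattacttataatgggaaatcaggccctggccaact
ELK4, chr1:205632012-205632261: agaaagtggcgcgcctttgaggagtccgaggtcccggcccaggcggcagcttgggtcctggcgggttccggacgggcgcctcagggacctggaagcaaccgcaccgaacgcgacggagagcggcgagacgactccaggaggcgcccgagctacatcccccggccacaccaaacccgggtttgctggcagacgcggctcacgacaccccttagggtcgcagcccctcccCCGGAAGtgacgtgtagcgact

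The GATA2 window held 1 match to the full steroid receptor site, 183 to 171 bases before the start, a pattern present in 0.328% of 35114 annotated promoter windows of the same length. The second annotated GATA2 start, at position 128488530, held no match to any of these letters. In the SPDEF window a forkhead match 49 to 43 bases before the start lay directly beside an ETS match 42 to 37 bases before it. Forkhead letters occurred in 8.27% of all windows and ETS letters in 35% of them. The last 4 bases of the SPDEF window lie inside SPDEF as GENCODE annotates the gene. The ELK4 window held 1 ETS match, CCGGAAG, 22 to 16 bases before the start. The FOXA1 window held a forkhead match 235 to 229 bases before its start, and that whole window lies inside FOXA1 as GENCODE annotates the gene. Promoter windows were matched for 6 of the 8 members, without HOXB13 and GRHL2. These are matches of letters only and say nothing of binding.

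GATA2, which lies at chr3:128479427-128493201, rose with both ARPi. The DMSO libraries had 68.3, 73.4 and 75.8 CPM. They were 159, 160 and 159 CPM with abiraterone and 151, 161 and 155 CPM with enzalutamide. The 12 libraries with an ARPi, alone or in combination, lay between 151 and 161 CPM and the 9 libraries without one between 67.4 and 78.5 CPM, so the groups did not overlap. This split was computed for the members only, here and in the paragraphs on ELK4, SPDEF and GRHL2. The share of all genes that separate in the same way is therefore not known. Abiraterone raised GATA2 by 1.13 ± 0.034 on the log2 scale (fitted log2 fold change ± SE, 2.19-fold, adjusted p = 5.15e-25, edgeR's quasi-likelihood test with Benjamini-Hochberg adjustment). Enzalutamide raised it by 1.10 ± 0.034 (2.14-fold, adjusted p = 1.14e-24). The change in GATA2 was larger in size than that of 89.4% of the genes tested with abiraterone and 88.6% with enzalutamide.

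ELK4, at chr1:205597556-205632011, moved the other way. The DMSO libraries had 223, 240 and 229 CPM, against 87.4, 94.9 and 88.1 CPM with abiraterone and 99.4, 101 and 102 CPM with enzalutamide. All 12 libraries with an ARPi lay between 87.4 and 102 CPM, below the 223 to 257 CPM of the other 9 libraries. ELK4 fell by 60.9% with abiraterone (log2 fold change −1.36 ± 0.038, adjusted p = 3.36e-24) and by 56.3% with enzalutamide (−1.19 ± 0.038, adjusted p = 6.29e-23).

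SPDEF, at chr6:34537802-34556333, fell the most of the 6 members tested. Its DMSO libraries had 143, 139 and 143 CPM. With abiraterone they had 54.9, 54.1 and 53.3 CPM and with enzalutamide 48.2, 48.5 and 48.1 CPM. The ARPi libraries ranged from 37.4 to 54.9 CPM and the others from 117 to 143 CPM, again without overlap. The fall was 61.8% with abiraterone (log2 fold change −1.39 ± 0.039, adjusted p = 5.71e-26) and 65.9% with enzalutamide (−1.55 ± 0.039, adjusted p = 1.74e-27). These exceeded the changes of 92.3% and 93.1% of the genes tested. The shares for abiraterone and enzalutamide were 92% and 89.7% for ELK4 and 63% and 47.8% for GRHL2. For HOXB13 they were 37.3% and 40.1%, and for FOXA1 26.3% and 27%. With olaparib and talazoparib alone the largest share was that of SPDEF, at 44.5% and 58.8%.

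GRHL2, at chr8:101492439-101669726, rose by less. The DMSO libraries had 160, 164 and 168 CPM, with 215, 222 and 208 CPM under abiraterone and 191, 202 and 194 CPM under enzalutamide. Its rise was 31.2% with abiraterone (log2 fold change 0.39 ± 0.032, adjusted p = 1.19e-12) and 19.5% with enzalutamide (0.26 ± 0.032, adjusted p = 2.01e-08). The lowest ARPi library, at 191 CPM, lay above the highest library without an ARPi, at 183 CPM.

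HOXB13, at chr17:48724763-48728750, had 261, 252 and 242 CPM in DMSO, 282, 289 and 289 CPM with abiraterone, and 295, 296 and 279 CPM with enzalutamide. It rose by 13.9% with abiraterone (log2 fold change 0.19 ± 0.029, adjusted p = 9.10e-07) and 15.1% with enzalutamide (0.20 ± 0.029, adjusted p = 1.96e-07). The 6 libraries of the combinations had 247 to 269 CPM, overlapping with the 235 to 261 CPM of the 9 libraries without an ARPi.

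FOXA1, at chr14:37589552-37596059, was the member whose direction differed between the ARPi. The DMSO libraries had 425, 439 and 422 CPM. They were 393, 390 and 395 CPM with abiraterone and 470, 464 and 473 CPM with enzalutamide, with no overlap among the 3 groups. FOXA1 fell by 8.35% with abiraterone (log2 fold change −0.13 ± 0.023, adjusted p = 1.91e-05) and rose by 9.37% with enzalutamide (0.13 ± 0.023, adjusted p = 1.15e-05).

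**Figure D1:**
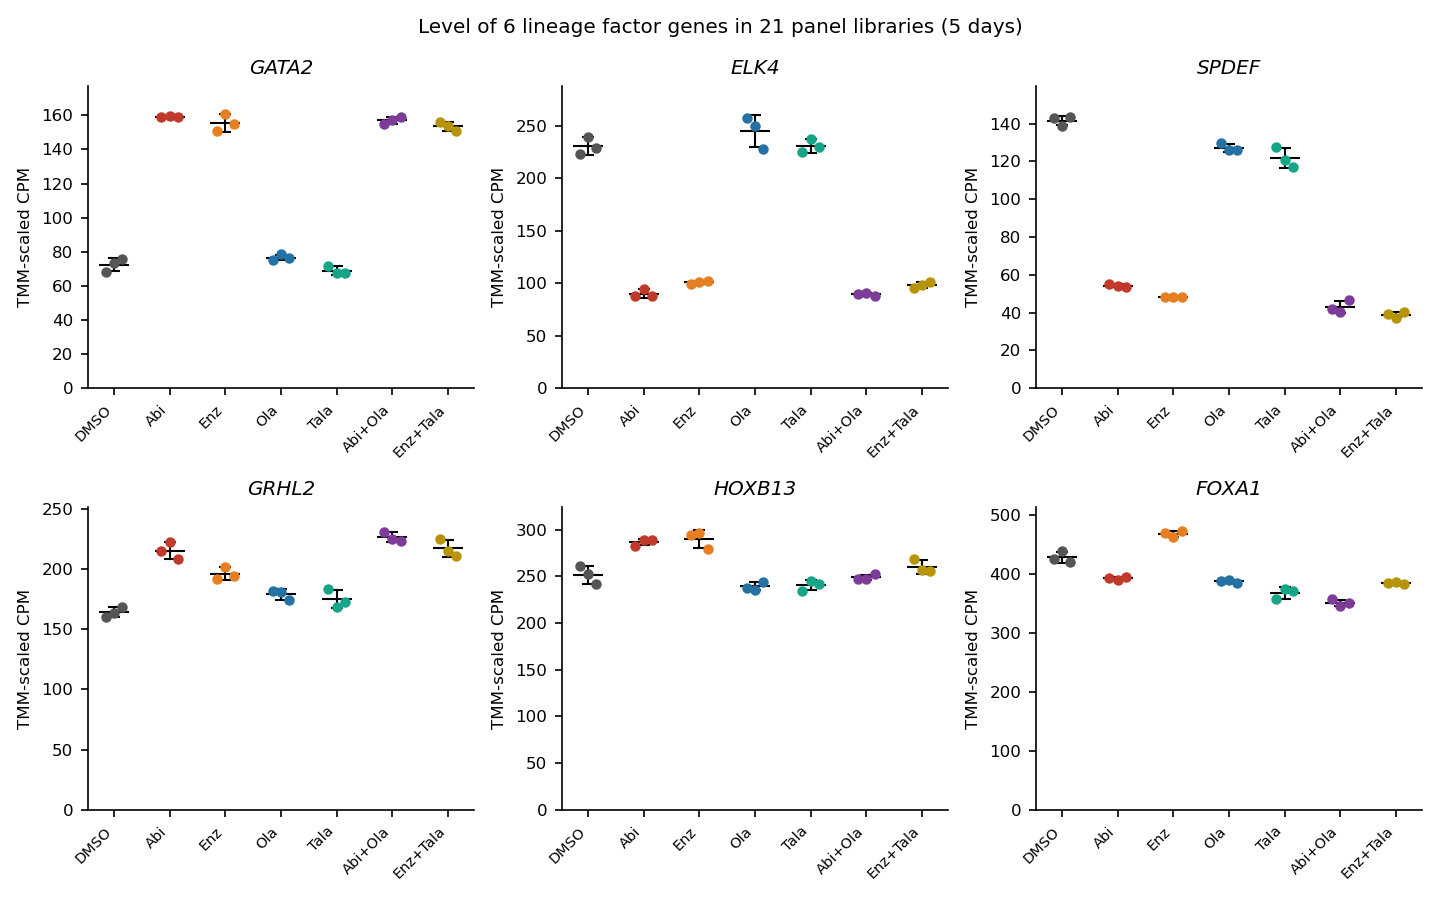
TMM-scaled CPM (vertical axes, from 0) of 6 members in the 21 panel libraries, with 3 points per treatment and black bars for the mean ± SD. The 12 libraries with abiraterone (Abi) or enzalutamide (Enz) lie at 151 to 161 CPM for GATA2 and at 37.4 to 54.9 CPM for SPDEF, apart from the 9 others, while FOXA1 stays between 347 and 473 CPM throughout.

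All 6 tested members passed the threshold of an adjusted p under 0.05 with abiraterone, 3 higher and 3 lower, where 52.9% of all genes tested passed it (25.8% higher and 27.1% lower). With enzalutamide all 6 passed as well, 4 higher and 2 lower, against 53.3% of all genes (27% higher and 26.3% lower). The median size of their log2 fold change was 0.76 with abiraterone and 0.68 with enzalutamide, beside 0.27 over all genes tested in either comparison. FOXA1 and HOXB13 lay below that median of all genes with each ARPi, and GRHL2 with enzalutamide. With olaparib and talazoparib alone the members' median was 0.105 and 0.084, beside 0.18 and 0.17 over all genes. A direct comparison of enzalutamide with abiraterone called 4 of the 6 members, where 19.8% of all genes were called (9.78% higher and 10.1% lower). FOXA1 was 19.3% higher with enzalutamide than with abiraterone (log2 difference 0.25 ± 0.023, adjusted p = 1.55e-10) and ELK4 11.8% higher (0.16 ± 0.039, adjusted p = 0.00293). SPDEF was 10.8% lower with enzalutamide, a log2 difference that fell by 0.16 ± 0.041 (adjusted p = 0.00346). GRHL2 was 8.92% lower, at −0.13 ± 0.032 (adjusted p = 0.00208). For GATA2 the 95% confidence interval of the log2 difference ran from −0.10 to 0.032 and for HOXB13 from −0.043 to 0.073.

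With each PARPi alone the fitted changes of GATA2, SPDEF, ELK4, GRHL2 and HOXB13 were smaller in size than with either ARPi, and those of FOXA1 were larger. These differences in size were not tested. Olaparib called 4 of the 6 members, where 35.6% of all genes were called (19.6% higher and 16% lower), and talazoparib called 3, where 33.8% were called (18.4% higher and 15.4% lower). SPDEF had 130, 126 and 126 CPM with olaparib and 128, 121 and 117 CPM with talazoparib, each library below the lowest DMSO library. Its falls were 10.1% with olaparib (log2 fold change −0.15 ± 0.036, adjusted p = 0.000916) and 14.1% with talazoparib (−0.22 ± 0.036, adjusted p = 8.88e-06). FOXA1 had 388, 391 and 386 CPM with olaparib and 357, 376 and 372 CPM with talazoparib, also below DMSO throughout. It fell by 9.43% (log2 fold change −0.14 ± 0.023, adjusted p = 5.50e-06) and 14.1% (−0.22 ± 0.023, adjusted p = 2.07e-09). GRHL2 had 182, 181 and 174 CPM with olaparib and 183, 168 and 173 CPM with talazoparib, and rose by 9.01% (adjusted p = 0.00245) and 6.57% (adjusted p = 0.0255). The second of these calls was lost without talazoparib replicate A (adjusted p = 0.419) or C or DMSO replicate A or B, with total-count scaling (adjusted p = 0.299) and with only the groups compared (adjusted p = 0.0993). HOXB13 fell by 4.95% with olaparib, near the threshold (adjusted p = 0.0448, and 0.252 without DMSO replicate A, 0.0992 without DMSO replicate B, 0.0579 without olaparib replicate A, 0.0806 without olaparib replicate B, 0.0506 with RLE scaling, 0.143 with no filter and 0.0526 with a replicate block), and its change of −0.066 ± 0.029 on the log2 scale with talazoparib was not called (adjusted p = 0.0770). With total-count scaling talazoparib was called lower for HOXB13 (−0.11, adjusted p = 0.00193) and GATA2 (−0.12, adjusted p = 0.00862). For HOXB13 it was also called with the 1 CPM filter (adjusted p = 0.0365), without DMSO replicate C (adjusted p = 0.0174) and without talazoparib replicate B (adjusted p = 0.0330).

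GATA2 and ELK4 were not called with either PARPi by the edgeR fit of all panel groups. GATA2 had 75.1, 78.5 and 76.4 CPM with olaparib and 71.8, 67.4 and 67.6 CPM with talazoparib. Its 95% confidence interval for the log2 fold change was 0.0062 to 0.15 with olaparib and −0.15 to −0.0046 with talazoparib. It was called higher with olaparib without DMSO replicate C (adjusted p = 0.0251), and lower with talazoparib without DMSO replicate A (adjusted p = 0.0115) or talazoparib replicate A (adjusted p = 0.0135). ELK4 had 257, 249 and 228 CPM with olaparib and 224, 237 and 229 CPM with talazoparib, and its intervals were 0.013 to 0.16 and −0.075 to 0.073. ELK4 was called higher with olaparib with no filter on low counts (0.089, adjusted p = 0.0477), with a replicate block (0.087, adjusted p = 0.0465), without DMSO replicate B (adjusted p = 0.0270) and without olaparib replicate C (adjusted p = 0.00760). Between the PARPi, 2 of the 6 members were called, where 8.36% of all genes were called (3.11% higher and 5.25% lower). GATA2 was 10.1% lower with talazoparib than with olaparib (log2 difference −0.15 ± 0.035, adjusted p = 0.00473, and 0.0542 without talazoparib replicate C). FOXA1 was 5.11% lower (adjusted p = 0.0355), a call lost without any 1 of the 6 libraries compared, with no filter (adjusted p = 0.273) and with only the groups compared (adjusted p = 0.0965). ELK4 was called lower without olaparib replicate C (adjusted p = 0.0196).

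The combinations carried the ARPi pattern for GATA2, ELK4 and SPDEF. Abiraterone plus olaparib called 5 of the 6 members against DMSO, where 62.2% of all genes were called (31.1% higher and 31.1% lower), and enzalutamide plus talazoparib called 5 where 62.4% were called (31.2% higher and 31.3% lower). GATA2 had 155, 157 and 159 CPM with abiraterone plus olaparib and 156, 154 and 151 CPM with enzalutamide plus talazoparib. ELK4 had 90.1, 90.8 and 88.2 CPM in the former and 95.5, 98.4 and 101 CPM in the latter. Both genes lay with the ARPi groups and apart from DMSO. SPDEF reached its lowest levels of the panel, with 42.04, 40.4 and 46.5 CPM for abiraterone plus olaparib and 39.1, 37.4 and 40.3 CPM for enzalutamide plus talazoparib. It was 69.7% below DMSO with the former (log2 fold change −1.72 ± 0.040, adjusted p = 1.58e-28) and 72.5% below with the latter (−1.86 ± 0.039, adjusted p = 8.72e-30).

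Adding the PARPi to an ARPi was compared directly. Abiraterone plus olaparib against abiraterone called 3 of the 6 members, all lower, where 29.2% of all genes were called (14.4% higher and 14.7% lower). SPDEF was 20.8% lower (log2 difference −0.34 ± 0.042, adjusted p = 1.03e-07), HOXB13 13.2% lower (−0.20 ± 0.029, adjusted p = 9.20e-07) and FOXA1 10.6% lower (−0.16 ± 0.023, adjusted p = 1.34e-06). GRHL2 was called higher in this comparison with the filter of 1 CPM in 3 libraries (0.081, adjusted p = 0.0473) and without abiraterone replicate B (adjusted p = 0.0448). Enzalutamide plus talazoparib against enzalutamide called 4 of the 6, where 34.4% of all genes were called (16.5% higher and 17.9% lower). SPDEF was 19.4% lower (−0.31 ± 0.041, adjusted p = 2.39e-07), FOXA1 17.9% lower (−0.28 ± 0.023, adjusted p = 4.00e-12), HOXB13 10.2% lower (−0.16 ± 0.028, adjusted p = 4.57e-05) and GRHL2 10.7% higher (0.15 ± 0.032, adjusted p = 0.000395). For GATA2 the intervals of these log2 differences were −0.087 to 0.046 and −0.085 to 0.046, and for ELK4 −0.087 to 0.075 and −0.11 to 0.043.

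HOXB13 had 247, 247 and 252 CPM with abiraterone plus olaparib and 269, 256 and 255 CPM with enzalutamide plus talazoparib, beside 242 to 261 CPM in DMSO. Its log2 differences from DMSO were −0.016 ± 0.029 (adjusted p = 0.653) and 0.048 ± 0.029 (adjusted p = 0.147). The second was called higher with total-count scaling (0.083, adjusted p = 0.0103) and without DMSO replicate A (adjusted p = 0.0400). GRHL2 had 231, 225 and 223 CPM and 224, 215 and 211 CPM in the respective combinations, the highest group means of the panel. The former lay above all abiraterone libraries (208 to 222 CPM) by less than 1 CPM and the latter overlapped with them. FOXA1 had 357, 347 and 350 CPM with abiraterone plus olaparib, the lowest group of the panel, and 385, 387 and 383 CPM with enzalutamide plus talazoparib.

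The interaction asks whether a combination departed from the sum of its log2 changes. For abiraterone and olaparib it was called for 2 of the 6 members, where 12.8% of all genes were called (4.74% higher and 8.08% lower). HOXB13 was lower than the sum by 8.67% (log2 interaction −0.13 ± 0.041, adjusted p = 0.0287) and SPDEF by 11.9% (−0.18 ± 0.056, adjusted p = 0.0251). Both calls lay near the threshold. Neither was called without DMSO replicate B, olaparib replicate A, or replicate A or B of the combination, or with total-count scaling. The HOXB13 call was also lost with the 1 CPM filter (adjusted p = 0.0716). At least 1 of the calls was also lost without DMSO replicate C, any abiraterone replicate or olaparib replicate C. For enzalutamide and talazoparib edgeR called 0 of the 6, where 12.6% of all genes were called (5.32% higher and 7.28% lower). At an unadjusted p under 0.05 it had 2, FOXA1 and HOXB13, and DESeq2's Wald test also called 0. The intervals of that log2 interaction were −0.17 to −0.0078 for HOXB13 and −0.20 to 0.019 for SPDEF.

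**Figure D2:**
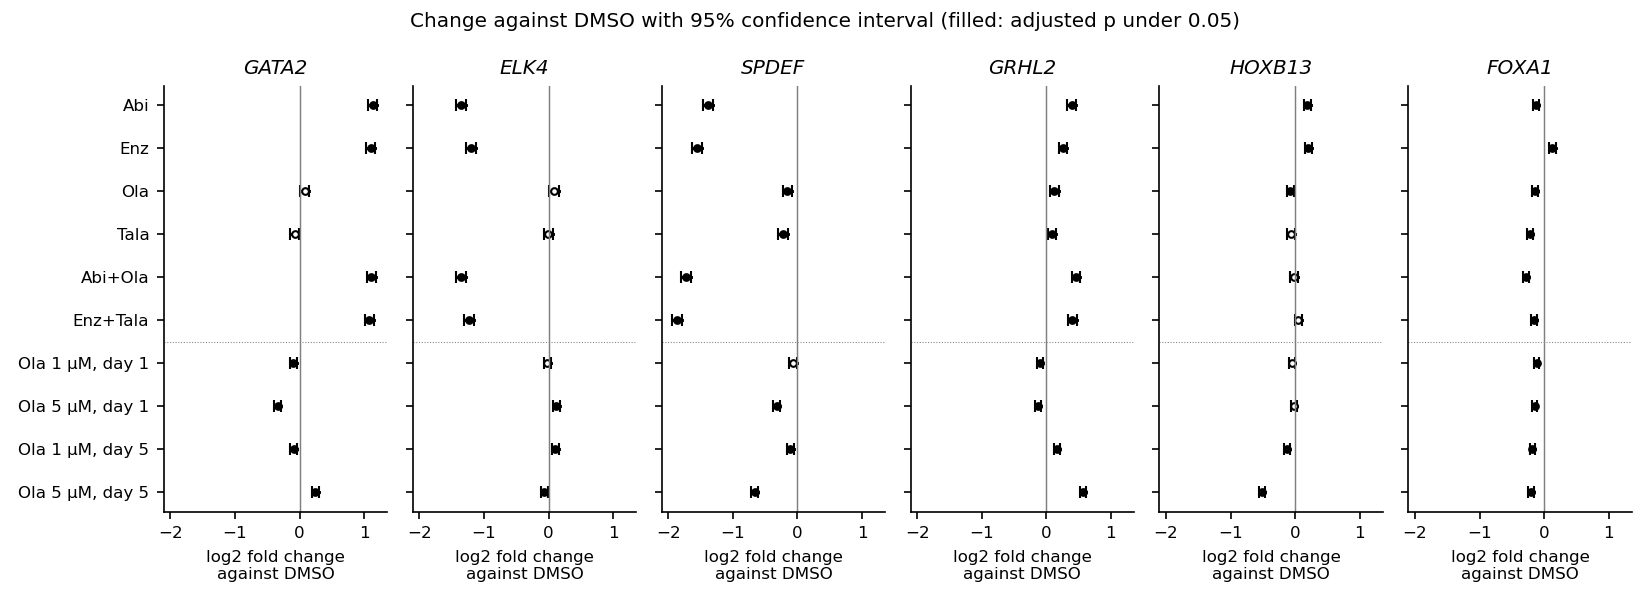
Log2 fold change against DMSO of the same experiment and day (horizontal axes) for 6 members in 10 comparisons, with bars for the 95% confidence interval and filled points where the adjusted p was under 0.05. SPDEF and ELK4 lie below −1 and GATA2 above 1 in the 4 ARPi comparisons. The lower 4 lines show GATA2, GRHL2 and ELK4 changing sign between day 1 and day 5 of 5 µM olaparib.

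In the time course, on day 1, 1 µM olaparib called 3 of the 6 members, all lower, where 15.8% of all genes were called (6.3% higher and 9.52% lower). Without olaparib 1 µM replicate 1 of that day, 1 was called. FOXA1 had 391, 395 and 380 CPM beside 423, 407 and 432 CPM in DMSO, a fall of 7.65% (log2 fold change −0.11 ± 0.021, adjusted p = 0.000117). GATA2 and GRHL2 fell by 6.52% (adjusted p = 0.0125) and 6.63% (adjusted p = 0.00376). For GATA2 that call was lost with total-count scaling (adjusted p = 0.0634) and without DMSO replicate 1, olaparib replicate 1 or olaparib replicate 3 (adjusted p from 0.0529 to 0.111).

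With 5 µM olaparib on day 1, 5 of the 6 members were called, 1 higher and 4 lower, where 45% of all genes were called (21.6% higher and 23.4% lower). GATA2 had 95.5, 90.9 and 94.0 CPM against 121, 119 and 115 CPM in DMSO, a fall of 21.1% (log2 fold change −0.34 ± 0.028, adjusted p = 9.56e-13). SPDEF had 94.5, 93.8 and 94.3 CPM against 114, 118 and 122 CPM in DMSO, a fall of 20.1% (−0.32 ± 0.028, adjusted p = 5.56e-12). Neither gene's 5 µM libraries overlapped with those of DMSO or 1 µM. FOXA1 fell by 9.57% (adjusted p = 3.01e-07), GRHL2 by 8.50% (adjusted p = 3.71e-05), and ELK4 rose by 8.64% (adjusted p = 0.000320). HOXB13 had 223, 221 and 218 CPM beside 224, 224 and 222 CPM in DMSO, with an interval of −0.064 to 0.027 for its log2 fold change.

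On day 5, 1 µM olaparib called all 6 members, 2 higher and 4 lower, where 46.3% of all genes were called (23.4% higher and 22.9% lower), with changes of 6.19% to 11.8% in size. FOXA1 had 337, 341 and 336 CPM against 381, 386 and 382 CPM in DMSO, a fall of 11.8% (log2 fold change −0.18 ± 0.021, adjusted p = 3.12e-09). GRHL2 had 178, 184 and 180 CPM against 165, 161 and 158 CPM, a rise of 11.8% (0.16 ± 0.024, adjusted p = 7.74e-07). HOXB13 fell by 8.29% (adjusted p = 1.47e-05), SPDEF by 7.22% (adjusted p = 0.00152) and GATA2 by 6.19% (adjusted p = 0.00680), while ELK4 rose by 7.73% (adjusted p = 0.000983).

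On day 5 with 5 µM olaparib all 6 were called again, 2 higher and 4 lower, where 68.2% of all genes were called (34.4% higher and 33.9% lower). For GRHL2, SPDEF, HOXB13 and FOXA1 the fitted changes were the largest that olaparib alone gave, though FOXA1 was not called against 1 µM on that day. GRHL2 had 238, 242 and 238 CPM, each above every other time course library, a rise of 47.9% (log2 fold change 0.56 ± 0.024, adjusted p = 8.09e-22). SPDEF had 76.7, 79.1 and 82.5 CPM against 123, 129 and 125 CPM in DMSO, a fall of 36.8% (−0.66 ± 0.029, adjusted p = 1.39e-21). HOXB13 had 156, 159 and 162 CPM against 224, 223 and 232 CPM, a fall of 29.8% (−0.51 ± 0.023, adjusted p = 2.98e-21).

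GATA2 had 119, 121 and 118 CPM with 5 µM olaparib on day 5 against 101, 99.8 and 103 CPM in DMSO, a rise of 18.3% (log2 fold change 0.24 ± 0.028, adjusted p = 9.64e-10). Its DMSO level was itself 14.7% lower on day 5 than on day 1. The 5 µM libraries of day 5 overlapped with the 115 to 121 CPM of DMSO on day 1. FOXA1 had 332, 331 and 336 CPM, a fall of 13.05% (−0.20 ± 0.021, adjusted p = 7.57e-11). ELK4 had 173, 166 and 171 CPM beside 182, 176 and 175 CPM, a fall of 4.34% near the threshold (adjusted p = 0.0335, and 0.253 without olaparib 5 µM replicate 2, 0.159 without DMSO replicate 1, 0.0715 without olaparib 5 µM replicate 3, 0.0504 with RLE scaling, 0.0946 with no filter and 0.0567 with the 1 CPM filter). Set against 1 µM on the same day, 5 µM differed for 5 of the 6 members, where 53.6% of all genes were called (26.6% higher and 27% lower). FOXA1 was the exception, with an interval of −0.063 to 0.021 for the log2 difference, but it was called lower with total-count scaling (−0.081, adjusted p = 0.000570). On day 1 the doses differed for 3 of the 6, GATA2, SPDEF and ELK4, where 28.8% were called (12.8% higher and 15.9% lower).

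**Figure D3:**
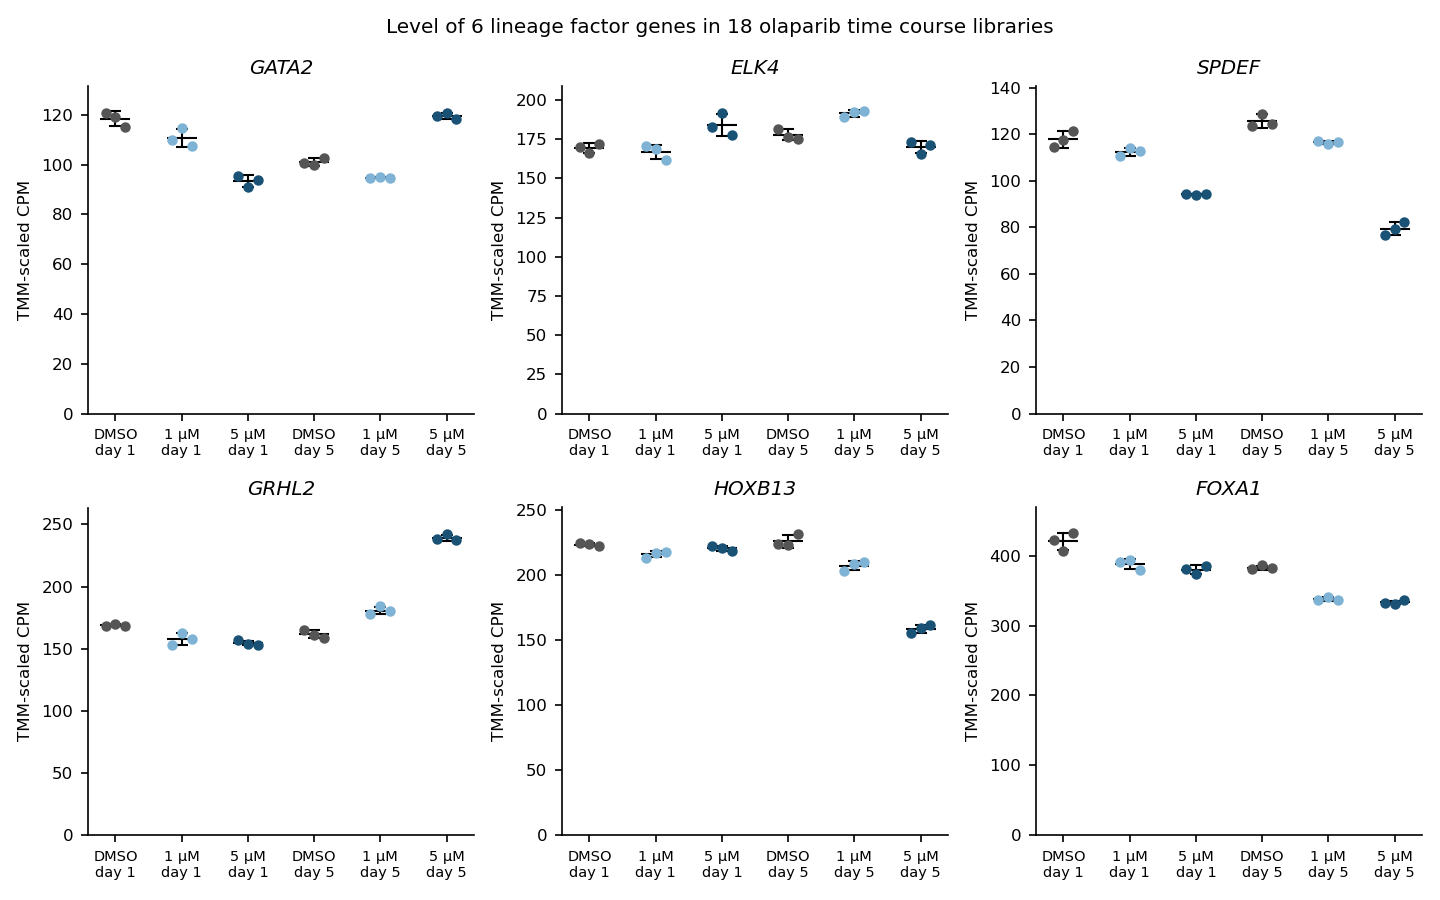
TMM-scaled CPM (vertical axes, from 0) of 6 members in the 18 time course libraries, with 3 points per group and black bars for the mean ± SD. With 5 µM olaparib, GRHL2 rises to 238 to 242 CPM on day 5 while HOXB13 falls to 156 to 162 CPM, and GATA2 lies below DMSO on day 1 and above it on day 5.

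The difference between days was itself tested. For 5 µM olaparib it was called for 5 of the 6 members, where 54.9% of all genes were called (27.2% higher and 27.7% lower). The day 5 effect exceeded the day 1 effect by 0.69 ± 0.034 on the log2 scale for GRHL2 (adjusted p = 2.22e-19) and by 0.58 ± 0.039 for GATA2 (adjusted p = 2.25e-15), and both genes changed sign between the days. It was lower by 28.9% for HOXB13 (log2 difference −0.49 ± 0.032, adjusted p = 6.87e-16), by 20.9% for SPDEF (−0.34 ± 0.040, adjusted p = 4.76e-09) and by 11.9% for ELK4 (−0.18 ± 0.038, adjusted p = 8.36e-05). ELK4 changed sign as well, from a rise of 8.64% on day 1 to a fall of 4.34%, near the threshold, on day 5. Scaling by total counts shifted the median of all genes in this comparison by −0.13, and all 5 calls and their directions remained under it. For FOXA1 the interval was −0.12 to 0.0031, and it was called lower with total-count scaling (−0.19, adjusted p = 2.94e-07) and without DMSO day 1 replicate 3 (adjusted p = 0.0337). For 1 µM olaparib the difference between days was called for 2 of the 6 members, GRHL2 (0.26 ± 0.034, adjusted p = 1.51e-07) and ELK4 (0.13 ± 0.038, adjusted p = 0.00885), where 29.8% of all genes were called (15.6% higher and 14.2% lower). With total-count scaling the ELK4 call was lost (0.079, adjusted p = 0.115), while FOXA1 (−0.11, adjusted p = 0.00113) and HOXB13 (−0.12, adjusted p = 0.00141) were called lower. HOXB13 was also called lower with the 1 CPM filter (adjusted p = 0.0477), DESeq2's Wald test (adjusted p = 0.0410) and only the groups compared (adjusted p = 0.0270). FOXA1 was so with only the groups compared (adjusted p = 0.0448) and without replicate 3 of DMSO (adjusted p = 0.0321) or of 1 µM olaparib (adjusted p = 0.0409) on day 1.

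Without any drug, 3 of the 6 members differed between DMSO on day 5 and on day 1, where 24.5% of all genes were called (11.1% higher and 13.4% lower). GATA2 was 14.7% lower on day 5 (log2 difference −0.23 ± 0.028, adjusted p = 6.45e-08) and FOXA1 8.91% lower (adjusted p = 5.19e-06), while SPDEF was 6.56% higher (adjusted p = 0.0133, and 0.0874 without DMSO day 1 replicate 1 and 0.101 without DMSO day 5 replicate 2). GRHL2 was called lower in 4 other settings, among them RLE scaling (adjusted p = 0.0358), and ELK4 higher in 4, among them total-count scaling (adjusted p = 0.00914). The 1 µM, 5-day olaparib treatment was run in both experiments, and a joint fit of all 39 libraries found 0 of the 6 members with a different effect, where 1.94% of all genes were called (0.913% higher and 1.03% lower). At an unadjusted p under 0.05 edgeR had 1, GATA2, whose effect was 0.15 ± 0.045 higher on the log2 scale in the panel (adjusted p = 0.0594), and it was called by DESeq2's Wald test (adjusted p = 0.0128), with RLE scaling (adjusted p = 0.0486), with the 1 CPM filter (adjusted p = 0.0432) and without panel DMSO replicate C (adjusted p = 0.0215). In this joint scaling the DMSO level of GATA2 was 72.8 ± 3.72 CPM in the panel and 101 ± 1.79 CPM in the time course on day 5, and that of ELK4 was 232 ± 8.48 and 177 ± 3.77 CPM (SD, n = 3 each). The experiment and any batch cannot be told apart.

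NR3C1, at chr5:143277931-143435512, had 0 to 11 counts per panel library and 0 to 4 per time course library. Panel counts were 1, 3 and 1 in DMSO, 0, 3 and 5 with abiraterone, and 6, 6 and 11 with enzalutamide. They were 1, 1 and 0 with olaparib and 2, 3 and 11 with talazoparib. The combinations had 4, 4 and 1 for abiraterone plus olaparib and 5, 6 and 1 for enzalutamide plus talazoparib. Enzalutamide libraries, at 0.142 to 0.263 CPM, were above the DMSO libraries without overlap. They overlapped with those of abiraterone (up to 0.154 CPM) and talazoparib (up to 0.233 CPM). The share of all genes that separate from DMSO in this way was not computed. A test without the filter on low counts gave an adjusted p of 0.0636 for enzalutamide. A count of 0 allows up to 3 counts, which is 0.0602 to 0.111 CPM at the depths of the panel, and this covers counting error only. No fold change is given at these counts.

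ETV1, at chr7:13891229-13991425, had 0 to 10 counts per panel library and 1 to 9 per time course library. Panel counts were 3, 10 and 6 in DMSO, 1, 0 and 0 with abiraterone, and 0, 3 and 0 with enzalutamide. They were 1, 5 and 1 with olaparib, 2, 7 and 10 with talazoparib, 6, 5 and 3 with abiraterone plus olaparib, and 0, 2 and 0 with enzalutamide plus talazoparib. Without the filter on low counts, ETV1 was called lower with abiraterone (adjusted p = 0.00422), enzalutamide (adjusted p = 0.0216) and enzalutamide plus talazoparib (adjusted p = 0.00454), but not with abiraterone plus olaparib (adjusted p = 0.908). That combination was called higher than abiraterone alone (adjusted p = 0.0258), and its interaction was called (adjusted p = 0.0155). In the time course, counts on day 5 were 1, 2 and 2 in DMSO and 8, 3 and 9 with 1 µM olaparib (adjusted p = 0.0298 without the filter). All of these rest on 10 counts or fewer per library. The LNCaP lineage is known for a rearranged ETV1 locus, and the counts here give the gene total only.

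**Figure D4:**
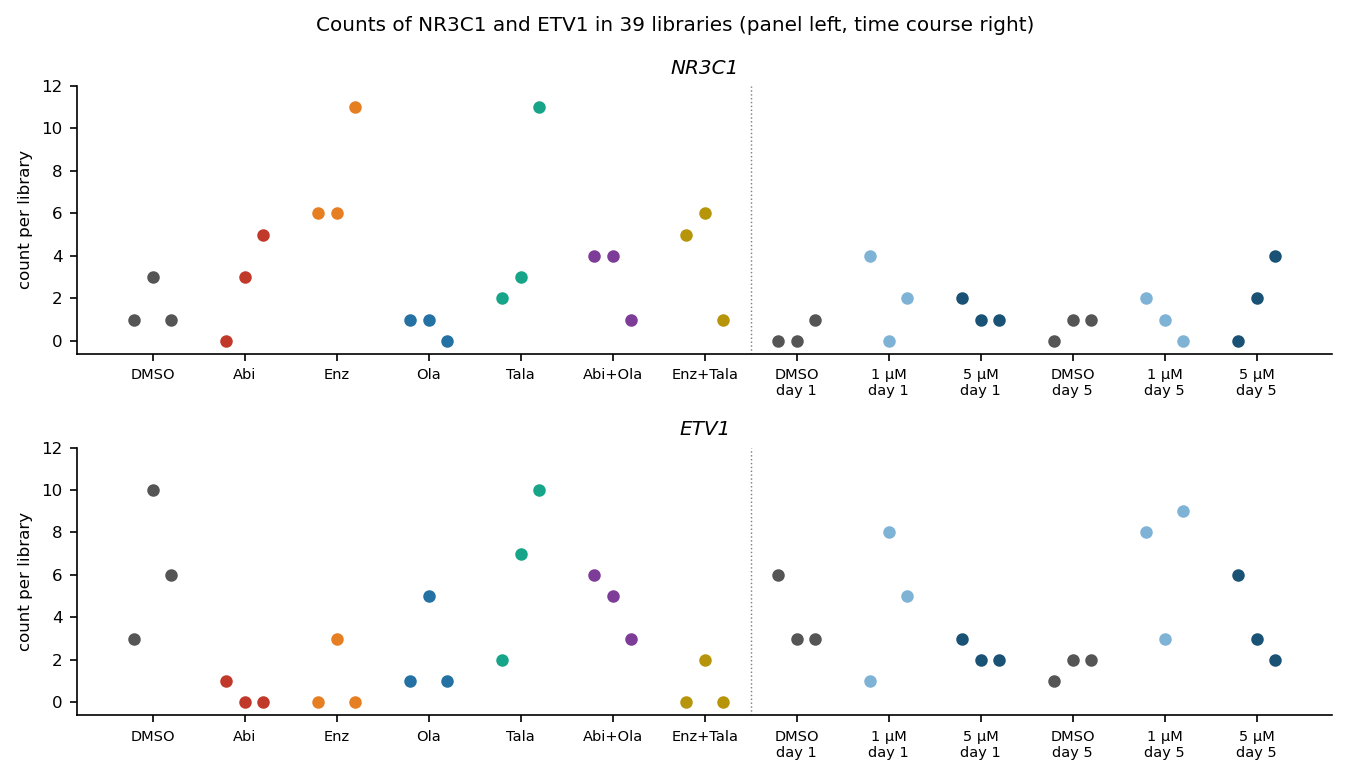
Raw counts (vertical axes) of NR3C1 and ETV1 in each of the 39 libraries by group, with 1 point per library and panel and time course parted by the dotted line. No library has more than 11 counts of NR3C1 or 10 of ETV1. The 3 enzalutamide libraries have 6, 6 and 11 counts of NR3C1, beside 1, 3 and 1 in DMSO and 2, 3 and 11 with talazoparib.

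Genes next to the members were set beside them, since gene-level counts can share reads where genes overlap or are read through. SLC45A3, an androgen-regulated gene that lies 25839 bases before ELK4 on the same strand, had 297 to 315 CPM in panel DMSO, 19.9 to 21.4 CPM with abiraterone and 14.9 to 17.3 CPM with enzalutamide. Its log2 fold changes were −3.89 ± 0.041 (adjusted p = 1.31e-38) and −4.23 ± 0.042 (adjusted p = 1.92e-39), both larger than those of ELK4. Transcripts that run from SLC45A3 into ELK4 are known in prostate cancer, and the ELK4 count cannot be split into these and ELK4's own. With 5 µM olaparib on day 5, SLC45A3 fell by 0.70 ± 0.025 on the log2 scale (adjusted p = 5.60e-24) while ELK4 changed by −0.064 ± 0.027.

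GATA2-AS1 overlaps GATA2 over 3990 bases on the opposite strand. The libraries were stranded, but whether the counting used strand is not given in the sources used here. GATA2-AS1 had 33.9 to 39.96 CPM in panel DMSO, 68.4 to 73.6 CPM with abiraterone and 58.3 to 64.6 CPM with enzalutamide. It rose by 0.98 ± 0.055 on the log2 scale with abiraterone (adjusted p = 5.83e-15) and by 0.75 ± 0.055 with enzalutamide (adjusted p = 2.44e-12), next to 1.13 and 1.10 for GATA2. With talazoparib it fell by 0.34 ± 0.059 (adjusted p = 3.33e-05), where GATA2 was not called. After SLC45A3, the largest changes in the panel among tested neighbours with at least 100 counts were those of NCALD, next to GRHL2, and ARHGAP26, next to NR3C1. NCALD rose by 3.48 ± 0.26 with enzalutamide plus talazoparib (adjusted p = 4.86e-14), from 0.203 to 0.349 CPM in DMSO to 2.58 to 3.56 CPM. ARHGAP26 fell by 1.79 ± 0.077 with abiraterone plus olaparib (adjusted p = 2.62e-17). Of 15 neighbours tested, 10 were called with abiraterone, 6 higher and 4 lower, and 11 with enzalutamide, 8 higher and 3 lower, where 52.9% and 53.3% of all genes were called. MFSD4A overlaps ELK4 over 5363 bases and TTC6 overlaps FOXA1 over 431 bases, each on the opposite strand. MFSD4A had 1.57 to 2.21 CPM in DMSO, and TTC6 46.8 to 47.8 CPM.

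**Figure D5:**
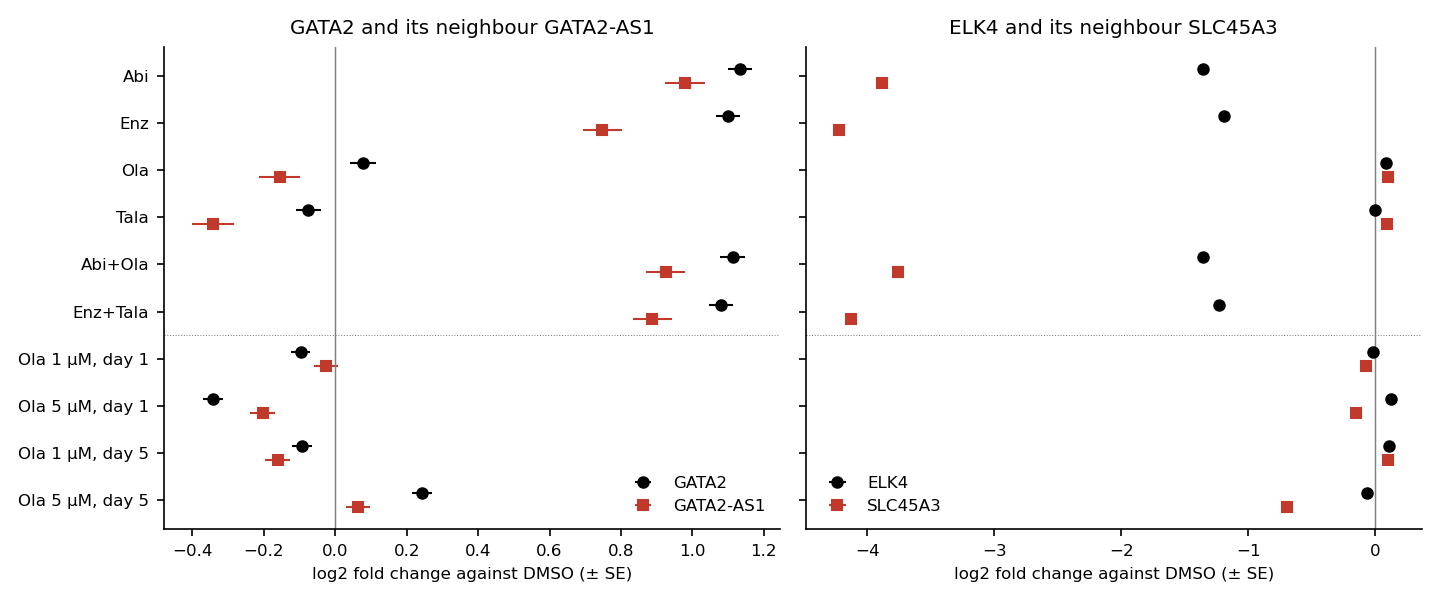
Log2 fold change against DMSO ± SE (horizontal axes) of GATA2 with GATA2-AS1 and of ELK4 with SLC45A3 in 10 comparisons. SLC45A3 reaches −3.89 with abiraterone and −4.23 with enzalutamide, further from 0 than ELK4, and GATA2-AS1 lies above 0 with each ARPi, as GATA2 does.

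Other genes of the same families and pathways give the setting. Among 26 relatives of the members (other nuclear receptor, FOXA, HOX13, GATA, grainyhead and ETS genes), 21 were tested, and 13 were called with abiraterone, 8 higher and 5 lower. With enzalutamide 13 were called, 10 higher and 3 lower. Over all genes tested the shares called were 52.9% with abiraterone and 53.3% with enzalutamide. Their median log2 fold change was 0.21 and 0.35, beside 0.00030 and 0.017 over all genes. ELF3, an epithelial ETS factor, rose by 1.74 ± 0.071 on the log2 scale with abiraterone (adjusted p = 2.44e-19) and 1.98 ± 0.069 with enzalutamide (adjusted p = 4.02e-21), opposite in sign to SPDEF and ELK4. The HOXB13 paralogs HOXA13 and HOXC13 rose by 1.41 ± 0.15 (adjusted p = 4.58e-10) and 1.34 ± 0.066 (adjusted p = 8.16e-19) with abiraterone, where HOXB13 rose by 0.19.

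Of 15 other lineage factors 12 were tested. With abiraterone 11 were called, 4 higher and 7 lower, and with enzalutamide 9, 3 higher and 6 lower, with medians of −0.44 and −0.23. Of all genes, 52.9% and 53.3% were called. MEIS1, a HOX cofactor, fell by 2.19 ± 0.10 with abiraterone (adjusted p = 2.19e-19), and RUNX1 by 2.90 ± 0.15 with abiraterone plus olaparib (adjusted p = 3.52e-18). Among 22 coregulators, all tested, 15 were called with abiraterone, 7 higher and 8 lower, and 16 with enzalutamide, 8 in each direction, with medians of 0.044 and 0.017, against the same shares over all genes. TLE3, a corepressor, rose by 0.92 ± 0.035 with enzalutamide (adjusted p = 4.32e-22), NCOA3, a coactivator, rose by 0.69 ± 0.044 (adjusted p = 1.22e-15), and PIAS1 fell by 0.60 ± 0.036 with abiraterone (adjusted p = 2.26e-16).

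Of 12 genes known to respond to glucocorticoids 11 were tested. With abiraterone 10 were called, 4 higher and 6 lower, and with enzalutamide 9, 3 higher and 6 lower, with medians of −0.66 and −0.46, where 52.9% and 53.3% of all genes were called. FKBP5 fell by 2.81 ± 0.028 on the log2 scale with enzalutamide (adjusted p = 1.92e-39), ZBTB16 by 3.19 ± 0.070 (adjusted p = 2.22e-21) and SGK1 by 1.54 ± 0.15 (adjusted p = 3.07e-11). These 3 genes are also known to respond to androgens. With 5 µM olaparib on day 5 all 11 were called, 8 higher and 3 lower, with a median of 0.53 beside −0.0083 over all genes, of which 68.2% were called (34.4% higher and 33.9% lower).

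Genes whose pattern was most like that of a member were found over the 13 group means of log2 CPM, each taken relative to the mean of its experiment, among 12375 genes with at least 100 counts on average. For ELK4 these were F5 (Pearson's r = 0.993) and NKILA (0.990), and for SPDEF ZCCHC2 and CMC2 (both 0.991). For GATA2 they were INPP5A (0.985) and RAI1 (0.983), for GRHL2 PGAP3 (0.982) and RAB9A (0.981), for FOXA1 C7orf50 (0.970) and TRAF3IP1 (0.959), and for HOXB13 RPP25 (0.966) and DRAIC (0.965). These are descriptions across 13 groups and carry no test, and at each point the values of both genes come from the same 3 libraries.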

How the data were processed

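RNA was sequenced from 39 libraries of C4-2B cells with stranded mRNA kits. Per the labels and the study's methods, the authors trimmed reads with Trim Galore, aligned them to GRCh38 with STAR and quantified them with Salmon. The authors deposited estimated counts per Ensembl gene, already whole numbers. How they were rounded and whether strand was used in counting is not given in the sources used here. IDs were matched to symbols through GENCODE, and 521 of 63187 IDs had none. The study's methods name a newer GENCODE release for counting than the one used here for positions, lengths and overlaps, so the gene models may differ.

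Counts were scaled by TMM and tested with edgeR 4.0.16 (R 4.3.3, quasi-likelihood test, robust, filterByExpr) separately in the panel (18625 genes) and the time course (18502 genes), and jointly over 39 libraries (19392 genes) for the difference between experiments. The p-values were adjusted over all genes tested by Benjamini-Hochberg and called under 0.05, and intervals are 95% confidence intervals. Scripts were tested on simulated data. CPM values are TMM-scaled, and a count of 0 allows up to 3 counts. Replicate libraries differed by 2.18 to 6.03 times the variance expected from counting alone (chi-square per degree of freedom), so none was taken as a duplicate. Depth was 26932205 to 49833473 counts per library in the panel and 34214001 to 44893664 in the time course. Alternatives were RLE and total-count scaling, no filter, a filter of 1 CPM in 3 libraries, DESeq2 1.42.0, the replicate label as a block, only the groups compared, and leaving out each library.

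The members and gene lists were chosen with earlier results of these data known. All 8 members are named, with up to 3 genes per list that passed the threshold, had the largest change against DMSO in the panel and averaged 100 counts or more in whichever group was higher. The 2 genes most like each tested member were also named. Neighbours that overlap a member and marker genes are named as those checks need. A gene of these lists that the rule would name is not reported here.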

Additional observations from a re-analysis of the deposited data

Results flagged for a closer look

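These results stood out because an effect differed between settings of the other factor by a direct test of the interaction (edgeR's quasi-likelihood test, adjusted p under 0.05). With 5 µM olaparib the effect on day 5 was higher than that on day 1 for GRHL2 by 0.693 on the log2 scale and for GATA2 by 0.584. It was lower for HOXB13 (−0.491), SPDEF (−0.338) and ELK4 (−0.184). With 1 µM olaparib the day 5 effect was higher for GRHL2 by 0.26 and for ELK4 by 0.127. That for ELK4 was not called with total-count scaling (0.079, adjusted p = 0.115). In the panel, abiraterone plus olaparib fell below the sum of the single log2 changes for SPDEF (−0.183) and HOXB13 (−0.131). Neither of these was called with total-count scaling. Groups of 3 libraries were not tested for single libraries that stand apart.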

How the results depend on the processing

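Of 132 results for single members in the 22 comparisons, 82 were called. In all settings run, 0 of these 82 changed sign and 11 lost the call in at least 1 setting. None of the 44 called results with a log2 change over 0.2 in size lost it. The cause of the changes below was not tested. With total-count scaling, results that were not called changed sign for HOXB13 with abiraterone plus olaparib (0.026), HOXB13 in enzalutamide against abiraterone (−0.00045), ELK4 with 1 µM olaparib on day 1 (0.0061), HOXB13 with 5 µM on day 1 (0.0299), GATA2-AS1 with 5 µM on day 5 (−0.019) and the difference between days for GATA2 with 1 µM (−0.043, and −0.0071 fitted on only the groups compared). With no filter, ELK4 with talazoparib gave 0.0081. With 1 CPM in 3 libraries, ELK4 in abiraterone plus olaparib against abiraterone gave 0.0031 and FOXA1 in the abiraterone by olaparib interaction 0.0044. The number of members called in that interaction went from 2 to 0 with total-count scaling and to 1 with the 1 CPM filter. Talazoparib against olaparib went from 2 to 1 with no filter and with only the groups compared. The 1 µM difference between days went from 2 to 4 with only the groups compared, DMSO day 5 against day 1 from 3 to 5 with the 1 CPM filter, and the difference between experiments from 0 to 1 with RLE scaling, the 1 CPM filter and DESeq2.

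Leaving out single libraries gave 0 to 2 members called for the abiraterone by olaparib interaction and for talazoparib against olaparib, 1 to 3 for 1 µM on day 1, and 0 to 1 for the difference between experiments. Uncalled results whose range crossed 0 were ELK4 with talazoparib (−0.037 to 0.027), in abiraterone plus olaparib against abiraterone (−0.036 to 0.031), in the enzalutamide by talazoparib interaction (−0.063 to 0.016), with 1 µM on day 1 (−0.035 to 0.0029) and between experiments (−0.079 to 0.0074). They were HOXB13 with abiraterone plus olaparib (−0.047 to 0.0082), in enzalutamide against abiraterone (−0.0019 to 0.043), in talazoparib against olaparib (−0.0035 to 0.023) and between DMSO days (−0.00082 to 0.027), and GATA2 in enzalutamide plus talazoparib against enzalutamide (−0.041 to 0.0073) and in the 1 µM difference between days (−0.017 to 0.031).

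The labels share replicate names across groups, but libraries with the same name did not deviate together (correlations from −0.0686 to 0.0636 in the panel and −0.133 to 0.116 in the time course). A replicate block left 130 of the 132 results on their side of the threshold. With it HOXB13 with panel olaparib (−0.073, adjusted p = 0.0526) lost its call and ELK4 with panel olaparib (0.0866, adjusted p = 0.0465) gained one. Depth limits NR3C1 and ETV1, for which no fold can be given.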

Other observations

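The relatives of members named here were chosen after their values were seen. ETV4, an ETS factor of the same subfamily as ETV1, had 1.11 to 1.30 CPM in DMSO on day 5 and 0.0842 to 0.113 CPM with 5 µM olaparib (log2 fold change −3.51 ± 0.30, adjusted p = 7.69e-13, edgeR). ETV5, the third of that subfamily, fell by 1.05 ± 0.22 on the log2 scale (adjusted p = 8.23e-05). ETV1 itself had 1, 2 and 2 counts in DMSO and 6, 3 and 2 counts with 5 µM olaparib on that day. GRHL3, a grainyhead relative of GRHL2, rose by 2.27 ± 0.27 (adjusted p = 2.14e-09) from 0.135 to 0.22 CPM in DMSO to 0.9 to 0.954 CPM, while GRHL1 fell by 0.52 ± 0.069 (adjusted p = 7.54e-08). ETV5 had at most 1.54 CPM in these groups.

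In the panel, ELK3, a relative of ELK4, moved opposite to it. It had 5.26 to 5.47 CPM in DMSO and 11.2 to 11.8 CPM with abiraterone (log2 fold change 1.10 ± 0.080, adjusted p = 3.62e-14), and rose by 1.09 ± 0.079 with enzalutamide (adjusted p = 4.41e-14). NR3C2, which encodes the mineralocorticoid receptor and is the closest relative of NR3C1, fell by 0.83 ± 0.089 with enzalutamide (adjusted p = 7.09e-10) and by 0.26 ± 0.087 with abiraterone (adjusted p = 0.0114), but rose by 0.45 ± 0.083 with abiraterone plus olaparib (adjusted p = 1.43e-05).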
